A study of Drosophila melanogaster with 9 samples.

Results

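STAT supercompetitors, cells of the *dpp* domain of the *Drosophila* wing disc that express GFP and *hop*, were compared gene by gene with control cells of the same domain that express GFP alone. The comparison takes 6 of the 9 libraries of the study, 3 of hop (hop 1 to hop 3) and 3 of gfp (gfp 1 to gfp 3), and its members are the 12741 of 16492 genes in the table of raw counts that passed a filter on low counts. The genotypes were *dpp-gal4, uas-gfp/uas-hop* for hop and *dpp-gal4, uas-gfp/+* for gfp, both in a background that the labels give as *w/+*, so both groups carry 1 copy of the driver and of the GFP transgene. Each library holds GFP-positive cells sorted from a pool of at least 60 wing discs of wandering last-instar larvae. The driver acts in a stripe of the anterior compartment, and the sorted cells include every cell type of the disc in which it is active. The other 3 libraries, in which the domain expresses GFP and *Myc*, enter here only through steps that use all 9 libraries, which are the filter, the normalization, the estimate of the spread between libraries and the principal components.

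In the JAK/STAT pathway, cytokines of the Unpaired family bind the receptor Domeless, the kinase Hopscotch (*hop*) phosphorylates the transcription factor Stat92E, and Stat92E turns on its targets, among them the feedback inhibitor *Socs36E*. In the wing disc the pathway acts early in growth and later mainly in the hinge, the ring of tissue between the wing blade (pouch) and the future body wall (notum). Cells with more pathway activity than their neighbors eliminate those neighbors and are therefore called supercompetitors.

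The labels were checked with *hop*, *Socs36E* and *chinmo*. Levels are in CPM, counts scaled to library size after TMM normalization, and are given in the order of libraries 1, 2 and 3. *hop* was at 1359.6, 1145 and 1432 CPM in hop libraries, against 62.6, 79.97 and 72.4 CPM in gfp libraries. *Socs36E* was at 85.3, 90.8 and 90.9 CPM in hop libraries, against 42.6, 48.4 and 48.5 CPM in gfp libraries, and *chinmo*, a BTB zinc-finger gene, was at 546, 537 and 760.5 CPM in hop libraries, against 98.8, 116 and 114 CPM in gfp libraries. For each of these genes the lowest hop library lay above the highest gfp library. The log2 fold changes were 4.19, 0.94 and 2.48, in that order of genes (standard errors 0.14, 0.14 and 0.21, adjusted p = 2.06e-11, 0.0018 and 9e-05, quasi-likelihood test of edgeR). A number alone in parentheses after CPM values is the log2 fold change of hop over gfp. Reads of the *hop* transgene and of the endogenous gene are counted together.

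The 6 libraries held 5265349 to 6104490 counts. Genes of ribosomal RNA and its pseudogenes took 25.2 to 27.3% of the counts in hop and 23.7 to 29.1% in gfp, and mitochondrially encoded genes took 3.09 to 4.10% in hop and 3.68 to 4.94% in gfp, so the ranges of both overlap. Along principal component 1, computed from the 500 genes of highest variance, the hop libraries scored 21.2 to 26.1 and the gfp libraries -20.2 to -6.45, with gfp 1 nearest to hop, while Myc 1, which belongs to neither group, scored 14.8. These are bulk libraries, in which fewer cells of a type and less RNA per cell cannot be told apart. Permuting 3 libraries against 3 exactly allows no p smaller than 0.1, and no such test was used on single genes. Nothing in the labels says how the discs of a genotype were divided among its 3 libraries, so the p-values measure only the spread between these libraries.

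At an adjusted p under 0.05 (edgeR, Benjamini-Hochberg), 402 of 12741 genes were higher in hop (3.16%) and 429 were lower (3.37%). The higher genes had a median level over the 6 libraries of 60.7 CPM, while that of the lower genes was 12 CPM and that of all tested genes 13.4 CPM. Of 1561 genes at 100 CPM or more, 150 were higher (9.61%) and 21 lower (1.35%), whereas of 4379 genes at 5 to 20 CPM, 78 were higher (1.78%) and 188 lower (4.29%). The log2 fold changes of all genes, called or not, had the same order, with a median of 0.17 at 100 CPM or more, -0.13 at 5 to 20 CPM and -0.28 at 1 to 5 CPM. The median fold of the called genes was 1.88 for higher and 2.53 for lower ones. Of all tested genes, 31.3% had hop libraries that did not overlap the gfp libraries.

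**Figure D1:**
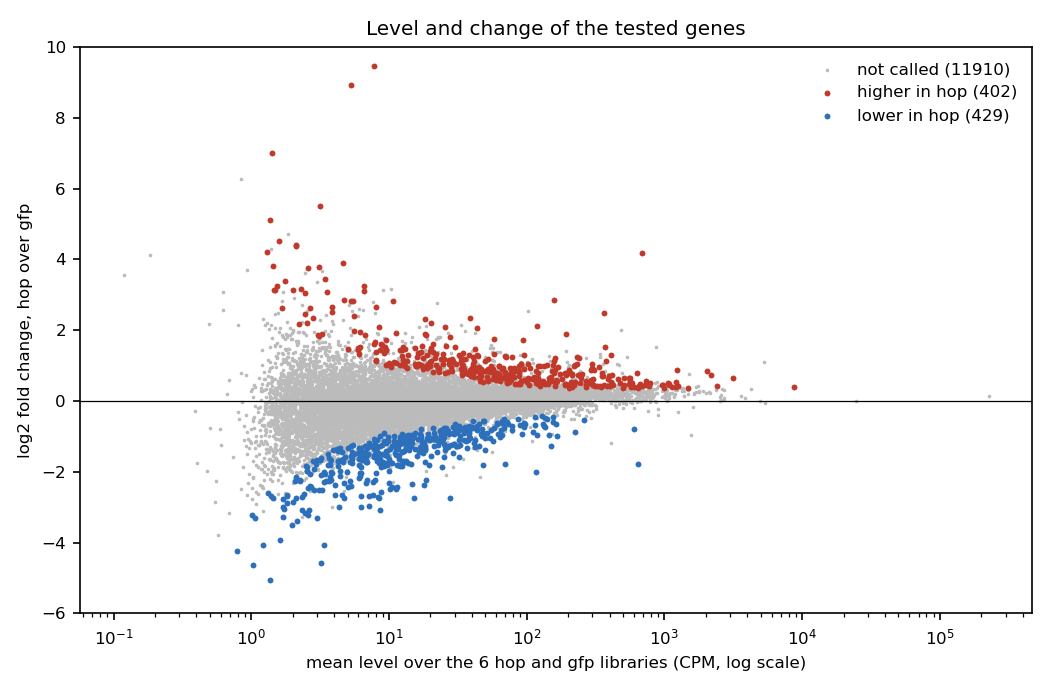
Log2 fold change of hop over gfp against the mean level over the 6 hop and gfp libraries (CPM, log axis) for the 12741 tested genes, with the 402 called higher in red and the 429 called lower in blue. The red points extend further right, at a median of 60.7 CPM, while most blue points lie further left, at a median of 12 CPM.

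Leaving out single libraries changed these counts. Leaving out hop 3 gave 125 higher and 74 lower genes, gfp 1 gave 240 and 274, gfp 2 gave 73 and 67, and gfp 3 gave 91 and 72. Without hop 2 the lower genes numbered 230, and without Myc 1 there were 1093 higher and 855 lower genes. The same 62 genes were called higher, and the same 48 lower, in the full fit and in all 9 fits that left out 1 library, and these 110 genes are described here as called whichever library was left out. Each of the other called genes lost its call in at least 1 of these 9 fits, also where that is not repeated beside it.

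By kind of gene, 385 of 11541 protein-coding genes were higher and 383 lower, while of 1015 non-coding RNA genes 14 were higher and 41 lower. On chromosome X, 66 of 1953 tested genes were higher (3.38%) and 34 lower (1.74%), with a median log2 fold change of 0.08. On chromosomes 2L, 2R, 3L and 3R the shares lay between 2.79% and 3.54% higher and between 3.35% and 3.89% lower, with medians between -0.06 and 0.00. Exon lengths had medians of 2684 bases for higher, 2046 bases for lower and 1787 bases for all tested genes. Whether strand was used in counting is unknown here, which leaves counts uncertain for genes with exon bases in common with another gene. Such sharing is stated beside many of the named genes. Where none is stated, a named gene may still share bases.

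The genes named here were taken by a rule on p, fold, level and list membership, except where it is said that they were chosen after their values were seen. All 304 called genes that the rule takes had hop libraries that did not overlap the gfp libraries, as 31.3% of all tested genes did. Since these genes were called on the same libraries, the gap nearly follows from the call and adds no evidence to it. Counts of called list members are to be read against 3.16% higher and 3.37% lower of all tested genes.

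**Figure D2:**
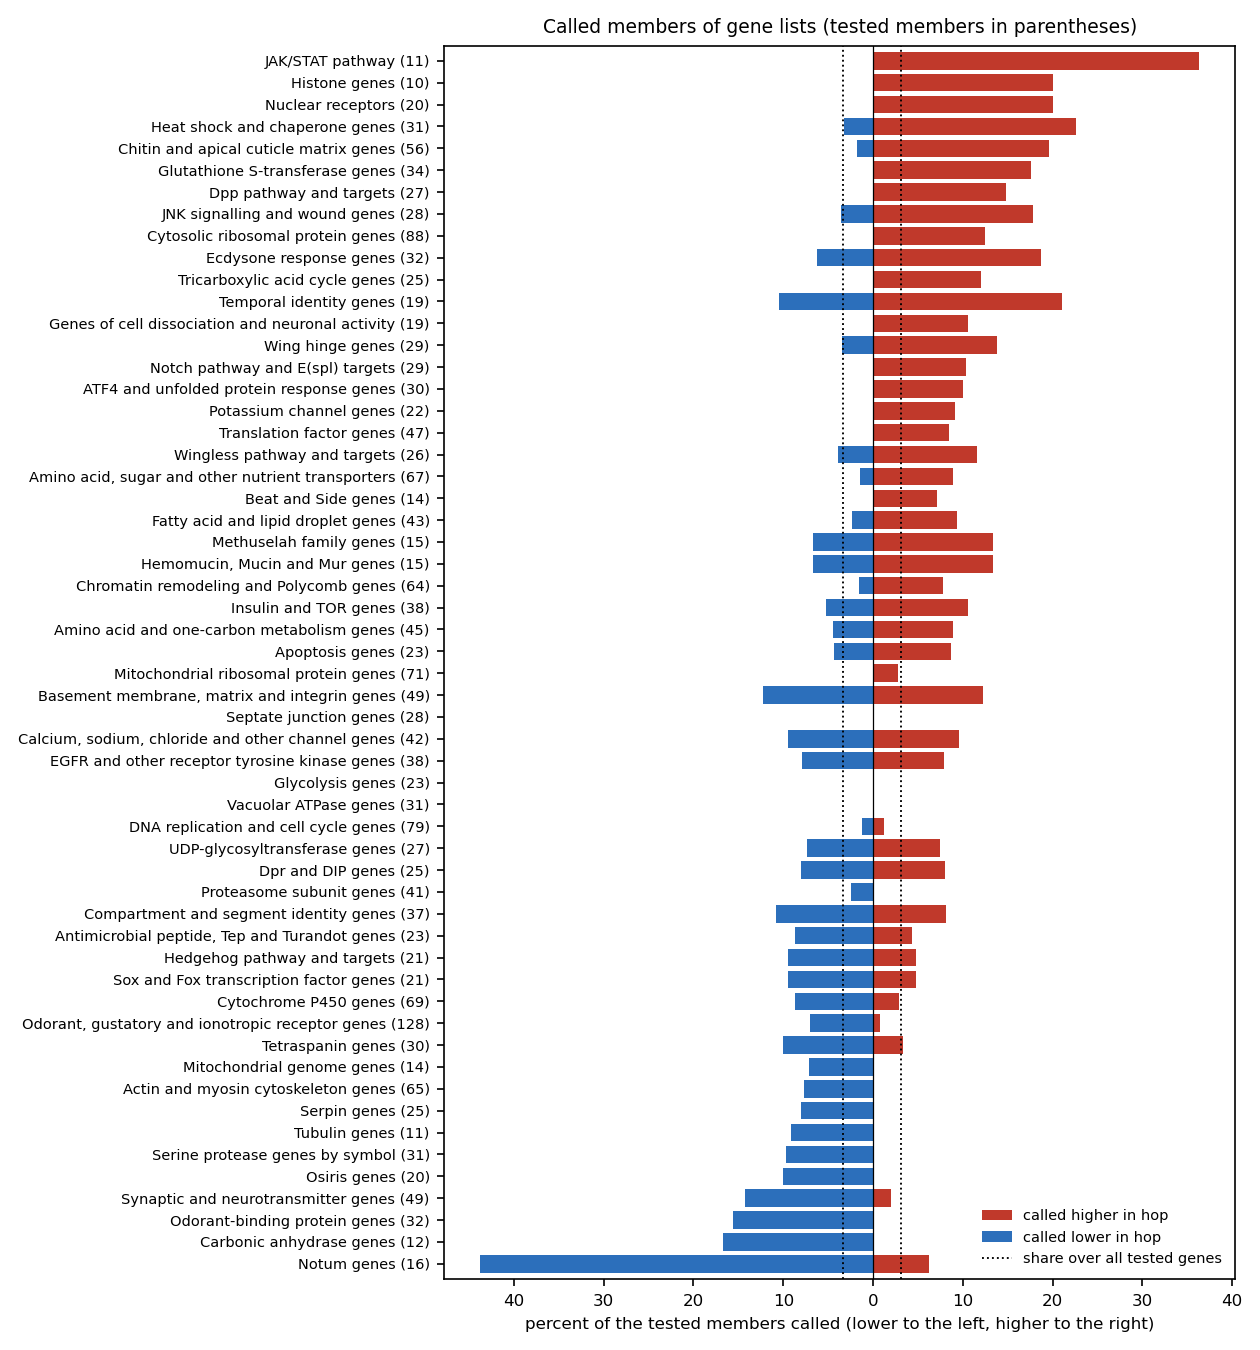
Percent of tested members called higher in hop (red, right) and lower in hop (blue, left) for 56 gene lists, with dotted lines at the 3.16% and 3.37% of all 12741 tested genes. Of 88 lists, mainly those with at least 7% of members called higher or lower, among at least 10 tested members, were drawn. In such lists a bar beyond a dotted line follows from this choice, and the figure does not represent all 88 lists. Notum genes reached 43.8% lower, and heat shock, chitin and glutathione S-transferase genes lay to the right of the line.

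Among genes that the study's text does not name, *sda* (*slamdance*), which encodes an aminopeptidase, had the smallest p of those that rose. *sda* was at 542, 505 and 612 CPM in hop libraries, against 199, 198 and 178 CPM in gfp libraries (1.53 on the log2 scale with a standard error of 0.13, adjusted p = 1.27e-05, edgeR). *Cpr49Ah*, a cuticle protein gene, was at 55, 63.6 and 74.6 CPM in hop libraries, against 11, 14.1 and 12.9 CPM in gfp libraries (log2 fold change 2.35, adjusted p = 2.9e-05). In both genes the hop libraries lay above the gfp libraries, which nearly follows from their choice by p. The uncharacterized *CG14598* and *CG6770* had log2 fold changes of 2.07 and 1.21. *pigs*, which encodes a protein that links actin and microtubules, was at 277, 281 and 346 CPM in hop against 81.8, 76 and 87.3 CPM in gfp (log2 fold change 1.88), and *IRSp53* (listed as *CG32082*), a membrane-bending adaptor whose exons share bases with a non-coding gene, at 95.4, 114 and 122 CPM in hop against 51.6, 42.2 and 45.2 CPM in gfp (1.25). *tey*, which encodes a regulator of muscle identity, was at 88.9, 106 and 73.8 CPM in hop against 30.9, 27.1 and 22.4 CPM in gfp (1.74), and *ppk13*, a sodium channel gene of the pickpocket family, at 32.9, 45 and 52.2 CPM in hop against 11.9, 10.8 and 14.3 CPM in gfp (1.81). The 12 genes of this group, which also include *brk*, *grn*, *verm* and *FASN1*, were called whichever library was left out.

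Of the genes outside the study's text with the largest increases and at least 5 CPM in hop, *dpr13*, a member of the Dpr family of cell surface proteins, was at 9.85, 1.94 and 6.66 CPM in hop against 0.366, 0 and 0 CPM in gfp (log2 fold change 5.51, adjusted p = 0.00981, edgeR). Library hop 2 was much nearer to gfp than the other hop libraries. *NAAT1*, a nutrient amino acid transporter, was at 11, 6.53 and 8.76 CPM in hop against 0.549, 0.515 and 0.615 CPM in gfp (3.91), and *Mur82C*, a mucin-related gene, at 5.02, 6.89 and 5.43 CPM in hop against 0.549, 0.686 and 0 CPM in gfp (3.79). The uncharacterized *CG32192* was at 13.9, 8.48 and 13.1 CPM in hop against 0.915, 1.2 and 1.54 CPM in gfp (3.25). *NAAT1*, *Mur82C* and *CG32192* were called whichever library was left out. *PpD5*, a protein phosphatase gene, and the uncharacterized *CG42355*, *CG18744* and *CG9308* had log2 fold changes of 3.43, 3.10, 3.09 and 2.65. Calls of *dpr13*, *PpD5*, *CG42355*, *CG18744* and *CG9308* each ended without some of the libraries hop 1, hop 2, hop 3, gfp 1, gfp 2 and gfp 3, left out singly, or without a filter on low counts (adjusted p = 0.050 to 0.17 where lost).

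Among the lower genes the smallest p outside the study's text belonged to *Rim*, which encodes a scaffold of the presynaptic active zone. *Rim* was at 24.2, 22.3 and 17.2 CPM in hop libraries, against 78.7, 70.5 and 75.4 CPM in gfp libraries (-1.82 on the log2 scale with a standard error of 0.20, adjusted p = 0.000126, edgeR). *kek1*, which encodes a transmembrane inhibitor of the EGF receptor, was at 159.5, 156.1 and 162 CPM in hop libraries, against 253, 297 and 319 CPM in gfp libraries (-0.86, adjusted p = 0.000817). *C15*, a homeobox gene, was at 1.3, 1.59 and 1.93 CPM in hop libraries, against 12.3, 10.3 and 15.7 CPM in gfp libraries (-2.97, adjusted p = 0.000911). In each of these genes the groups did not overlap, which nearly follows from the call. *CG4367* and the forkhead gene *FoxP* had log2 fold changes of -2.32 and -2.31, *CG1894* had a log2 fold change of -2.22, and *smal* (listed as *CG34380*), a discoidin domain receptor gene, had a log2 fold change of -0.88. *klu*, a zinc-finger gene and among the 8 most abundant lower genes, was at 132, 113 and 134 CPM in hop against 189, 209 and 198 CPM in gfp (-0.66, adjusted p = 0.00424). *Osi4* and *Osi6*, members of the Osiris family, were among the largest decreases, with -4.58 and -2.99. All of these lower genes were called whichever library was left out.

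**Figure D3:**
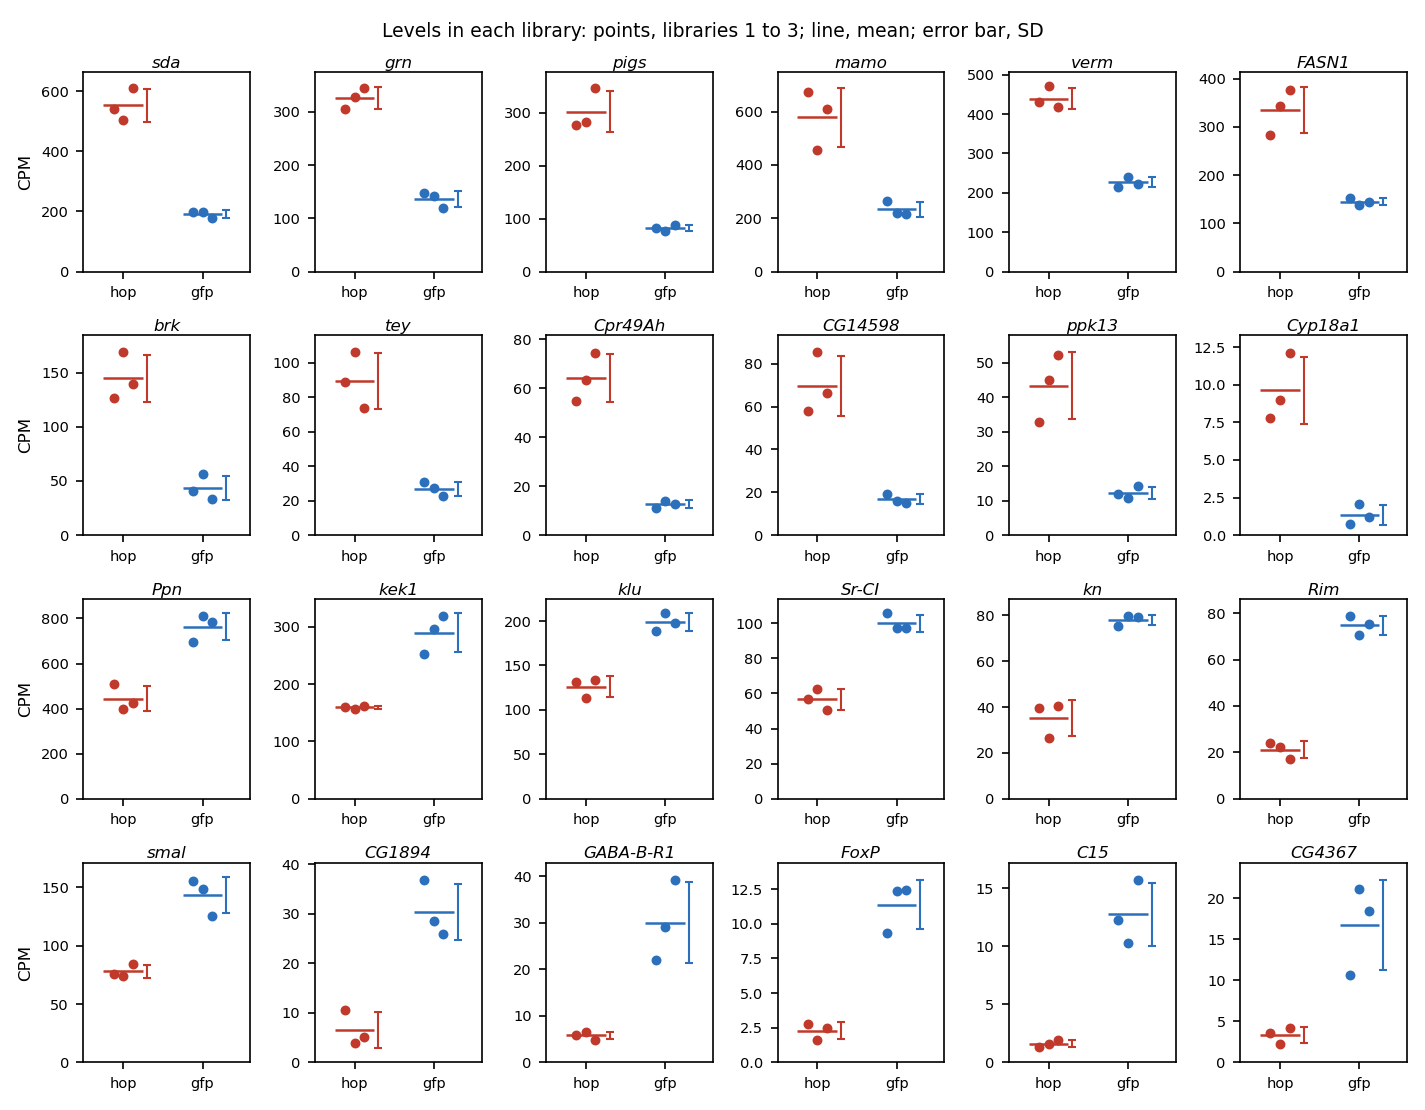
CPM of 24 genes in the 3 hop libraries (left in each panel) and the 3 gfp libraries (right), with the mean as a line and the SD as an error bar, each axis starting at 0. All 24 were called genes, so that the groups overlap in no panel nearly follows from their choice. Of them, 12 genes were higher in hop, among them *sda*, and 12 were lower in hop, among them *Rim*.

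Territory genes of the disc were called in both directions. Of 29 tested wing hinge genes, 4 were higher and 1 was lower, with a median log2 fold change of 0.08, while of 16 notum genes 1 was higher and 7 lower, with a median of -0.61. The median of all tested genes was -0.02. *grn*, which encodes a GATA factor, was at 305, 327 and 346 CPM in hop libraries, against 148, 143 and 119 CPM in gfp libraries (log2 fold change 1.26, standard error 0.13, adjusted p = 9.61e-05, edgeR). It was called whichever library was left out, as was the hinge gene *zfh2*. Further hinge genes that rose were *bab2* (0.70) and *Dr* (0.61), and *disco-r*, a zinc-finger gene, fell (-1.36). *tup*, a LIM-homeobox gene of the notum, was at 12.6, 11.3 and 20.7 CPM in hop against 41.2, 29.7 and 37.3 CPM in gfp (-1.27), and *caup*, a gene of the Iroquois complex, at 93.3, 118 and 126 CPM in hop against 202, 229 and 234 CPM in gfp (-0.98). Of 21 pouch genes only *wg* (0.83) was higher and only *kn* (*knot*), which patterns the central wing, was lower, at 39.4, 26.3 and 40.3 CPM in hop against 75.4, 79.6 and 79.1 CPM in gfp (-1.14, adjusted p = 0.00155). These are 4.76% of the pouch genes in each direction, against 3.16% and 3.37% of all tested genes. Calls of *bab2*, *Dr* and *disco-r* each ended without some of the libraries hop 3, gfp 1, gfp 2 and gfp 3, left out singly (adjusted p = 0.0506 to 0.0828 where lost). The 7 lower notum genes became 4 without gfp 2 or gfp 3, and the 4 higher hinge genes 2 without gfp 1, gfp 2 or gfp 3.

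Of 37 genes of compartment and segment identity, 3 were higher and 4 lower, and the 4 lower genes became 0 with hop 3, gfp 2 or gfp 3 left out, 1 with hop 2 or gfp 1 left out and 2 with hop 1 left out. *ss* (*spineless*), which specifies distal antenna and leg, was at 33.8, 47.5 and 38.5 CPM in hop against 62.7, 73.1 and 73.7 CPM in gfp (-0.81), and *toy*, a Pax6 gene of the eye, at 48.5, 50.3 and 57.5 CPM in hop against 92.7, 76.7 and 70.4 CPM in gfp (-0.62). *ci*, the transcription factor of Hedgehog signaling, whose exons share bases with an antisense RNA, was at 1239, 1438 and 1645 CPM in hop against 1021, 1012 and 1175 CPM in gfp (0.43). The 3 higher genes became 1 without hop 3, gfp 1, gfp 2 or gfp 3 and 5 without Myc 1. Calls of *ss*, *toy* and *ci* each ended without some of the libraries hop 1, hop 2, hop 3, gfp 1, gfp 2 and gfp 3, left out singly, or without gfp 1 and Myc 1 together (adjusted p = 0.0532 to 0.159 where lost).

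In the Dpp pathway, 4 of 27 tested genes were higher and 0 lower (median log2 fold change 0.06, above 0 in 14). *brk* (*brinker*), which encodes the repressor that Dpp signaling silences, was at 126, 169 and 139 CPM in hop libraries, against 41, 56.1 and 33.6 CPM in gfp libraries (1.73 on the log2 scale with a standard error of 0.20, adjusted p = 0.000189, edgeR). *tkv*, the type I receptor of Dpp, whose exons share bases with other genes, was at 342, 376 and 408 CPM in hop against 182, 249 and 188 CPM in gfp (0.86). *brk* and *tkv* were called whichever library was left out. *sog*, an extracellular antagonist of BMP ligands, and *Actbeta*, an activin ligand, had log2 fold changes of 0.65 and 0.98. Calls of *sog* and *Actbeta* each ended without some of the libraries hop 1, hop 2, hop 3, gfp 1, gfp 2 and gfp 3, left out singly (adjusted p = 0.0539 to 0.161 where lost). The 4 higher genes became 2 without hop 2, hop 3, gfp 2 or gfp 3 and 7 without Myc 1.

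Of 26 Wingless pathway genes 3 were higher and 1 lower. The receptor gene *fz2* was at 631, 706 and 710.3 CPM in hop against 424, 475 and 418 CPM in gfp (log2 fold change 0.64, adjusted p = 0.00274, edgeR) and was called whichever library was left out. The ligand gene *Wnt5* was higher (0.59), and the ligand gene *Wnt10*, whose exons share bases with an antisense RNA, was lower (-1.74). Calls of *Wnt5* and *Wnt10* each ended without some of the libraries hop 3, gfp 1, gfp 2 and gfp 3, left out singly (adjusted p = 0.0516 to 0.0749 where lost). In the Notch list, 3 of 29 were higher and 0 lower, with 22 above 0 and a median of 0.29. *dpn*, a bHLH repressor gene, was at 72.7, 66.4 and 78 CPM in hop against 34.6, 27.8 and 32.6 CPM in gfp (1.19, adjusted p = 0.00526), with exon bases shared with an antisense RNA, and was called whichever library was left out. *neur*, a ubiquitin ligase of Delta, had a log2 fold change of 0.76, and *Tom*, a Bearded family gene, had a log2 fold change of 0.51. Calls of *neur* and *Tom* each ended without some of the libraries hop 1, hop 3, gfp 1, gfp 2 and gfp 3, left out singly, or with a minimum of 10 counts in every hop and gfp library (adjusted p = 0.0504 to 0.158 where lost). The 3 higher Wingless genes became 6 without Myc 1, and the 3 Notch genes 1 with gfp 2 or gfp 3 left out, 5 with gfp 1 left out and 6 with Myc 1 left out.

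Of 21 Hedgehog genes 1 was higher and 2 were lower (4.76% and 9.52%, against 3.16% and 3.37% of all tested genes). *sotv* (listed as *Ext2*), which makes heparan sulfate chains, was at 16.7, 8.65 and 10.5 CPM in hop against 31.5, 35.5 and 30.7 CPM in gfp (log2 fold change -1.45, adjusted p = 0.00526, edgeR), with exon bases shared with *CysRS*, which was lower too (-0.77). Among 38 receptor tyrosine kinase genes, 3 were higher and 3 lower, and the FGF members differed in sign. The ligand gene *pyr* was at 76, 71.9 and 72.7 CPM in hop against 46.8, 42.7 and 35.5 CPM in gfp (0.82), the ligand gene *ths* at 51.1, 74.2 and 90.8 CPM in hop against 114, 109 and 139 CPM in gfp (-0.74), and *stumps*, an adaptor of the FGF receptors, at 9.3, 10.2 and 6.48 CPM in hop against 22.7, 41.7 and 26.6 CPM in gfp (-1.80). *stumps* was called whichever library was left out and is also a marker of adult muscle precursors. Calls of *pyr*, *ths* and *CysRS* each ended without some of the libraries hop 1, hop 2, hop 3, gfp 2 and gfp 3, left out singly (adjusted p = 0.0523 to 0.138 where lost). The 3 higher receptor tyrosine kinase genes became 0 without gfp 2 or gfp 3 and 1 without hop 1, hop 3 or gfp 1.

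Temporal identity genes, which mark early or late states of progenitors, were called higher in 4 of 19 and lower in 2. *mamo*, a zinc-finger gene, was at 672, 455 and 609 CPM in hop libraries, against 265, 218 and 216 CPM in gfp libraries (log2 fold change 1.31, standard error 0.17, adjusted p = 0.00134, edgeR). *ab* (*abrupt*), a BTB zinc-finger gene whose exons share bases with *cmet*, was at 256, 271 and 353 CPM in hop against 139.9, 143 and 164 CPM in gfp (0.98), and *Imp*, an mRNA-binding protein gene whose exons share bases with non-coding genes, at 431, 445 and 541 CPM in hop against 309, 291 and 329 CPM in gfp (0.61). *mamo* and *chinmo* were called whichever library was left out. Calls of *ab* and *Imp* ended without gfp 2 (adjusted p = 0.0526 to 0.0595 where lost). The 2 that fell, named here after their values were seen, were *let-7-C*, the precursor locus of let-7 microRNAs, at 8.37, 4.94 and 5.08 CPM in hop against 15.2, 17.7 and 20.3 CPM in gfp (log2 fold change -1.53, adjusted p = 0.0409), and *lin-28*, an RNA-binding inhibitor of let-7, at 9.85, 5.65 and 4.03 CPM in hop against 17.9, 18.5 and 13.7 CPM in gfp (-1.36, adjusted p = 0.0301). The 4 higher genes became 2 without gfp 2, and the 2 lower genes 0 without hop 2, hop 3, gfp 1, gfp 2 or gfp 3 and 1 without hop 1.

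Genes of the chitinous apical matrix rose in 11 of 56 and fell in 1, with a median log2 fold change of 0.28. *verm*, a chitin deacetylase, was at 429.7, 471 and 418 CPM in hop libraries, against 215, 241 and 224 CPM in gfp libraries (log2 fold change 0.96, standard error 0.10, adjusted p = 0.000108, edgeR), and *serp*, its paralog, was at 193, 184 and 158 CPM in hop against 96.2, 95.4 and 79.1 CPM in gfp (0.98). *kkv*, the chitin synthase, was at 273, 315 and 306 CPM in hop against 165, 163 and 207 CPM in gfp (0.74), and *Idgf4*, a secreted chitinase-like growth factor, at 31.8, 47.2 and 55.7 CPM in hop against 14.6, 15.4 and 16.6 CPM in gfp (1.53). These 4 genes were called whichever library was left out. *Gasp*, a chitin-binding protein gene, had a log2 fold change of 1.0. The call of *Gasp* ended without gfp 2 or gfp 3 (adjusted p = 0.0502 to 0.0581 where lost). The 11 higher genes became 4 with gfp 2 or gfp 3 left out, 5 with hop 3 left out, 7 with hop 2 left out and 17 with Myc 1 left out. The structural cuticle protein families showed 1 higher (*Cpr49Ah*) and 3 lower of 75, with a median of -0.57. These are 1.33% and 4.0%, near the 3.16% and 3.37% of all tested genes or below. The 3 lower ones, *Cpr47Ee*, *Cpr65Aw* and *Lcp65Ae*, were low genes, and *Cpr47Ee* averaged 1.8 ± 0.539 CPM in hop and 5.73 ± 1.23 CPM in gfp (SD, n = 3 each). Calls of *Cpr47Ee*, *Cpr65Aw* and *Lcp65Ae* each ended without some of the libraries hop 1, hop 2, hop 3, gfp 1, gfp 2, gfp 3, Myc 2 and Myc 3, left out singly, or without gfp 1 and Myc 1 together, with limma-voom or without a filter on low counts (adjusted p = 0.0505 to 0.159 where lost). The count of 3 became 0 without hop 2, hop 3, gfp 1, gfp 2 or gfp 3 and 7 without Myc 1.

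Genes of basement membrane and extracellular matrix were called in both directions, 6 of 49 higher and 6 lower. *mfas*, a fasciclin-domain gene, was at 299, 236 and 252 CPM in hop against 158, 140.2 and 138 CPM in gfp (log2 fold change 0.85, adjusted p = 0.00193, edgeR). *Ppn* (*papilin*), a matrix proteoglycan that hemocytes make, was at 509, 400.3 and 425 CPM in hop against 695, 809 and 784 CPM in gfp (-0.78, adjusted p = 0.00457). *Pxn* (*peroxidasin*), whose exons share bases with other genes, had a log2 fold change of -1.69, and *Mmp1*, a matrix metalloproteinase, had a log2 fold change of 0.89. *mfas* and *Ppn* were called whichever library was left out. Calls of *Pxn* and *Mmp1* each ended without some of the libraries gfp 2 and gfp 3, left out singly (adjusted p = 0.0548 to 0.0639 where lost). The 6 higher genes became 1 with gfp 3 left out, 2 with hop 3 or gfp 2 left out and 14 with Myc 1 left out, and the 6 lower genes 1 with gfp 2 left out, 2 with hop 3 left out and 3 with hop 2 or gfp 3 left out. *dpy* (listed as *dp*), a giant apical matrix protein and among the 8 most abundant higher genes, was at 2709, 2377 and 2732 CPM in hop against 1533, 1443 and 1346 CPM in gfp (0.85). The call of *dpy* ended without hop 3, gfp 2 or gfp 3 (adjusted p = 0.0687 to 0.0898 where lost).

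In lipid metabolism, 4 of 43 genes were higher and 1 lower. *FASN1* (listed as *CG3523*), the main fatty acid synthase, was at 283, 344 and 377 CPM in hop libraries, against 153, 138 and 143 CPM in gfp libraries (log2 fold change 1.21, standard error 0.14, adjusted p = 0.000189, edgeR). Its relative *FASN3* (listed as *CG17374*) was at 27, 12.4 and 17.3 CPM in hop against 3.29, 1.89 and 2.77 CPM in gfp (2.83), and *Desat1*, a fatty acid desaturase, at 165, 165 and 209 CPM in hop against 125, 118 and 108 CPM in gfp (0.62). *bmm*, the triglyceride lipase Brummer, which acts opposite to synthesis, was also higher, at 243, 197 and 211 CPM in hop against 115, 97.7 and 85.4 CPM in gfp (1.13). *FASN1* and *FASN3* were called whichever library was left out. Calls of *Desat1* and *bmm* each ended without some of the libraries hop 3, gfp 2 and gfp 3, left out singly (adjusted p = 0.054 to 0.101 where lost). The 4 higher genes became 2 without gfp 2 or gfp 3.

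Of 25 genes of the tricarboxylic acid cycle 3 were higher and 0 lower: *PCB* (listed as *CG1516*), pyruvate carboxylase, with a log2 fold change of 0.75, *kdn*, citrate synthase, with 0.53, and *Ogdh* (listed as *Nc73EF*), 2-oxoglutarate dehydrogenase, with 0.43. Calls of *PCB*, *kdn* and *Ogdh* each ended without some of the libraries hop 2, hop 3, gfp 1, gfp 2, gfp 3 and Myc 3, left out singly, or with a minimum of 10 counts in every hop and gfp library, without gfp 1 and Myc 1 together, with limma-voom or without a robust estimate of the spread (adjusted p = 0.0505 to 0.18 where lost). None of 23 glycolysis genes was called, with a median log2 fold change of 0.01, and *Gapdh2* averaged 190.0 ± 30.5 CPM in hop and 174 ± 9.32 CPM in gfp (SD, n = 3 each, adjusted p = 0.553, edgeR). Of 45 amino acid and one-carbon genes 4 were higher and 2 lower, among them *Gdh*, glutamate dehydrogenase (0.46), *Ddc*, dopa decarboxylase (0.97), and *Nmdmc*, a mitochondrial folate enzyme (0.62), with *hgo*, a tyrosine breakdown enzyme, lower (-0.94). Calls of *Gdh*, *Ddc*, *Nmdmc* and *hgo* each ended without some of the libraries hop 1, hop 2, hop 3, gfp 1, gfp 2 and gfp 3, left out singly (adjusted p = 0.0513 to 0.155 where lost). Of 67 nutrient transporters 6 were higher and 1 was lower, with *foi*, a zinc transporter, at 338, 347 and 373 CPM in hop against 225, 244 and 236 CPM in gfp (0.59). The call of *foi* ended without gfp 3 (adjusted p = 0.0543 where lost). The 3 higher cycle genes became 0 with hop 3, gfp 1, gfp 2 or gfp 3 left out, 1 with hop 2 or Myc 3 left out, 5 with Myc 1 or Myc 2 left out and 6 with hop 1 left out, the 4 higher amino acid genes 0 with hop 3, gfp 2 or gfp 3 left out, 2 with hop 1 or gfp 1 left out and 10 with Myc 1 left out, the 2 lower amino acid genes 0 with hop 1, hop 2, hop 3, gfp 1, gfp 2 or gfp 3 left out, 1 with Myc 2 left out and 5 with Myc 1 left out, and the 6 higher transporters 2 with gfp 3 left out, 3 with gfp 2 left out and 11 with Myc 1 left out.

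Heat shock and chaperone genes were called higher in 7 of 31 and lower in 1, and 28 of 31 had a log2 fold change above 0 (median 0.57). *Hsp70Bc* was at 13, 17.1 and 11.7 CPM in hop libraries, against 2.19, 2.23 and 2.15 CPM in gfp libraries (2.66, adjusted p = 0.0018, edgeR), and *Hsp70Bbb*, a near-identical copy, at 3.35, 3.36 and 4.21 CPM in hop against 0.366, 0.515 and 0.307 CPM in gfp (3.14). Reads of such copies cannot be assigned with certainty. *Hsp67Bc*, a small heat shock protein gene, was at 51.9, 44.9 and 41.7 CPM in hop against 19.2, 23.2 and 17.7 CPM in gfp (1.2), and *Hsp83*, the Hsp90 gene, whose exons share bases with *CG14966*, at 3569, 3362 and 4540.1 CPM in hop against 2603, 2296 and 2479.8 CPM in gfp (0.64). Calls of *Hsp70Bbb*, *Hsp67Bc*, *Hsp83* and *Hsp70Aa* each ended without some of the libraries hop 1, hop 3, gfp 1, gfp 2 and gfp 3, left out singly (adjusted p = 0.0516 to 0.146 where lost). The 7 higher genes became 1 with gfp 3 left out, 2 with hop 3 or gfp 2 left out, 4 with gfp 1 left out, 12 with Myc 3 left out and 15 with Myc 1 left out. Among 19 genes known to respond to tissue dissociation and neuronal activity, 2 were higher, *Hr38*, a nuclear receptor gene, and *Hsp70Aa*, and the median was 0.43. The count of 2 became 1 with hop 3, gfp 1, gfp 2 or gfp 3 left out, 4 with Myc 3 left out and 7 with Myc 1 left out. Whether sorting has a part in these values was not tested.

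*Thor*, the translation inhibitor 4E-BP, was at 24.9, 17.8 and 26.1 CPM in hop against 10.6, 10.6 and 12.4 CPM in gfp (1.03), and *sip3* and *Sesn* had log2 fold changes of 0.70 and 0.68, which makes 3 higher and 0 lower of 30 genes of the ATF4 and unfolded protein response. The count of 3 became 0 without gfp 2 or gfp 3 and 1 without hop 1, hop 3 or gfp 1. *Xrp1*, a transcription factor that acts in losers of cell competition and responds to DNA damage, was at 505, 477 and 482 CPM in hop against 347, 331 and 322 CPM in gfp (0.55, adjusted p = 0.0261, edgeR). The proapoptotic *rpr* and *hid* (listed as *W*) had log2 fold changes of 1.28 and 0.59, and *Dronc* (listed as *Nc*), the initiator caspase, had a log2 fold change of -0.98, out of 23 apoptosis genes. Calls of *Thor*, *sip3*, *Sesn*, *Xrp1*, *rpr*, *hid* and *Dronc* each ended without some of the libraries hop 1, hop 2, hop 3, gfp 1, gfp 2, gfp 3 and Myc 3, left out singly (adjusted p = 0.0528 to 0.162 where lost). *Ilp8*, a relaxin-like peptide of damaged or overgrown discs, was at 26, 29 and 36.4 CPM in hop against 7.13, 6.86 and 4.46 CPM in gfp (2.31, adjusted p = 0.000189). The exons of *Ilp8* share bases with *CG7730* and a non-coding gene. *Ilp8* was the only one of 5 higher genes in the list of 28 JNK and wound genes that was called whichever library was left out, and the count of 5 became 1 with gfp 3 left out, 2 with hop 3 or gfp 2 left out and 8 with Myc 1 left out.

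Glutathione S-transferases were higher in 6 of 34 and lower in 0, with a median of 0.25. Of these 6, *GstD1*, *GstD3*, *GstD4* and *GstD5* form a run of neighboring tested genes on 3R. *GstO2*, an omega class enzyme whose exons share bases with *se*, was at 119, 124 and 155 CPM in hop against 83, 88.4 and 89.7 CPM in gfp (log2 fold change 0.61, adjusted p = 0.0179, edgeR), and *GstD1* was at 554, 620.4 and 676 CPM in hop against 426, 379.8 and 377 CPM in gfp (0.65). *Keap1*, the inhibitor of the Nrf2 factor CncC, was lower (-0.62). Of 40 redox enzyme and Nrf2 genes, 1 was higher and 2 were lower (2.5% and 5%, against 3.16% and 3.37% of all tested genes), with a median of 0.05. The higher gene was *Duox* and the lower ones were *Keap1* and *Nox*. *Duox* and *Nox* encode enzymes that produce reactive oxygen species. Calls of *GstO2*, *GstD1*, *Keap1*, *Duox* and *Nox* each ended in some of the fits that left out 1 library. The libraries were hop 1, hop 3, gfp 1, gfp 2 and gfp 3 (adjusted p = 0.0516 to 0.153 where lost, edgeR). The 6 higher genes became 0 with gfp 2 left out, 1 with hop 3 left out and 2 with gfp 3 left out. Of 69 cytochrome P450 genes 2 were higher and 6 lower (median -0.20). *Cyp18a1*, which inactivates ecdysone, was higher, at 7.81, 9.01 and 12.1 CPM in hop against 0.732, 2.06 and 1.23 CPM in gfp (2.82, adjusted p = 0.00289), and *Cyp4p3* was lower, at 7.81, 7.95 and 9.46 CPM in hop against 22.3, 28.5 and 32.7 CPM in gfp (-1.73). Both were called whichever library was left out. The 6 lower genes became 2 with hop 3, gfp 2 or gfp 3 left out, 3 with hop 1 left out and 10 with Myc 1 left out, and the 2 higher genes 1 without hop 1, hop 2, hop 3, gfp 1, gfp 2 or gfp 3.

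Of 32 ecdysone response genes 6 were higher and 2 lower, and of 20 nuclear receptors 4 were higher and 0 lower. *Hr38*, whose exons share bases with *CG2617*, was at 54.7, 47.7 and 46.1 CPM in hop against 19.4, 21.6 and 17.4 CPM in gfp (log2 fold change 1.35, adjusted p = 0.000752, edgeR) and was called whichever library was left out. *knrl*, a knirps-related receptor, had a log2 fold change of 0.98, *vri*, a bZIP gene, had a log2 fold change of 0.81, and *dor*, a vesicle trafficking gene whose exons share bases with *CG3740*, had a log2 fold change of -0.67. Calls of *knrl*, *vri* and *dor* each ended without some of the libraries hop 3, gfp 1, gfp 2 and gfp 3, left out singly (adjusted p = 0.0501 to 0.133 where lost). The 6 higher ecdysone response genes became 1 with gfp 3 left out, 2 with gfp 2 left out and 3 with hop 3 or gfp 1 left out, the 2 lower ones 0 with hop 3 or gfp 2 left out, 1 with hop 1, hop 2, gfp 1 or gfp 3 left out and 4 with Myc 3 left out, and the 4 nuclear receptors 1 without hop 3, gfp 1, gfp 2 or gfp 3.

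Synaptic and neurotransmitter genes were lower in 7 of 49 and higher in 1, while their median was 0.03. *GABA-B-R1*, a metabotropic GABA receptor, was at 5.95, 6.53 and 4.91 CPM in hop libraries, against 21.9, 29 and 39.2 CPM in gfp libraries (log2 fold change -2.37, adjusted p = 0.00469, edgeR). *Vmat*, the vesicular monoamine transporter, whose exons share bases with *CG13330*, was at 3.9, 6.0 and 1.93 CPM in hop against 17.4, 28.3 and 33.5 CPM in gfp (-2.74), and *Nlg1*, a neuroligin, at 0.186, 0.706 and 0.526 CPM in hop against 3.11, 6.18 and 4.15 CPM in gfp (-3.18). *Rim* and *GABA-B-R1* were called whichever library was left out. Calls of *Vmat* and *Nlg1* ended without hop 1, hop 3, gfp 2 or gfp 3 (adjusted p = 0.0504 to 0.0926 where lost). The 7 lower genes became 2 without hop 3, gfp 2 or gfp 3 and 3 without hop 1.

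Ion channel genes were called in both directions. *Irk1*, an inwardly rectifying potassium channel whose exons share bases with *cnc*, was at 154, 155 and 146 CPM in hop against 89.4, 89.9 and 85.7 CPM in gfp (0.78, adjusted p = 0.00348, edgeR) and was called whichever library was left out. The voltage-gated sodium channel *para* was at 318, 216 and 277 CPM in hop against 173, 150.3 and 155 CPM in gfp (0.76). *Orai* (listed as *olf186-F*), the store-operated calcium channel, was lower, at 103, 102 and 103 CPM in hop against 151, 186 and 162 CPM in gfp (-0.70), as were *stol* (listed as *CG4587*), a calcium channel subunit (-1.85), and the chloride channel *pHCl-1* (listed as *pHCl*, -2.01). Calls of *para*, *Orai*, *stol* and *pHCl-1* each ended without some of the libraries hop 1, hop 2, hop 3, gfp 1, gfp 2 and gfp 3, left out singly, or with limma-voom (adjusted p = 0.0517 to 0.108 where lost).

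At the cell surface, *hbs* (*hibris*), an immunoglobulin adhesion gene, was at 97.8, 69.8 and 71.8 CPM in hop against 128, 155.8 and 185 CPM in gfp (log2 fold change -0.97, adjusted p = 0.00354, edgeR), and *DIP-gamma* (listed as *CG14521*), a partner of Dpr proteins whose exons share bases with *CG11828*, at 2.79, 4.77 and 2.28 CPM in hop against 15.7, 20.9 and 16.4 CPM in gfp (-2.42). Both were called whichever library was left out. *otk*, a receptor-like pseudokinase, had a log2 fold change of -0.68, and of the Dpr genes *dpr18* had a log2 fold change of -1.25 and *dpr20* had a log2 fold change of 1.37. *beat-IV* was at 4.28, 5.83 and 2.45 CPM in hop against 0.549, 0.172 and 0.615 CPM in gfp (3.16). Calls of *otk*, *dpr18*, *dpr20* and *beat-IV* each ended without some of the libraries hop 1, hop 2, hop 3, gfp 1, gfp 2 and gfp 3, left out singly (adjusted p = 0.0576 to 0.113 where lost). Of 65 actin and myosin genes 0 were higher and 5 lower, and these include the muscle genes *Tm2* (-2.25) and *wupA* (-2.72). Calls of *Tm2* and *wupA* each ended without some of the libraries hop 1, hop 2, hop 3, gfp 1, gfp 2 and gfp 3, left out singly, or with limma-voom (adjusted p = 0.0518 to 0.122 where lost). The 5 lower genes became 0 with hop 3, gfp 2 or gfp 3 left out, 1 with hop 2 or gfp 1 left out and 2 with hop 1 left out.

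Several families of low level were called mainly as lower. Low genes in general leaned the same way: at 5 to 20 CPM 1.78% were higher and 4.29% lower (median log2 fold change -0.13). At 1 to 5 CPM the shares were 1.01% and 2.85% (median -0.28). Lower calls took 15.6% of odorant-binding protein genes and 7.03% of the receptor genes, against 3.37% of all tested genes. The part of level in the values of these families was not tested. Odorant-binding proteins were lower in 5 of 32 and higher in 0 (median -0.34), with *Obp99a* at 1.12, 1.77 and 0.876 CPM in hop against 6.58, 6.01 and 11.2 CPM in gfp (-2.65, adjusted p = 0.00551, edgeR), called whichever library was left out. Odorant, gustatory and ionotropic receptors were lower in 9 of 128 and higher in 1 (median -0.26). *Gr98d* was at 2.42, 1.59 and 2.28 CPM in hop against 10.2, 12.5 and 17.1 CPM in gfp (-2.66), whereas *Gr63a*, a subunit of the carbon dioxide receptor, was at 67.9, 55.8 and 47.1 CPM in hop against 20.1, 27.3 and 30.4 CPM in gfp (1.13). Both were called whichever library was left out. Osiris genes were lower in 2 of 20 and higher in 0 (median -0.78), and tetraspanins lower in 3 of 30 and higher in 1 (median -0.35). The 5 odorant-binding protein genes became 1 without hop 3, gfp 2 or gfp 3 and 3 without hop 1 or hop 2, the 9 receptor genes 1 without hop 3, gfp 2 or gfp 3 and 4 without hop 2 or gfp 1, and the 3 tetraspanins 0 without hop 3 or gfp 3 and 1 without hop 2, gfp 1 or gfp 2.

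Among 88 genes of the cytosolic ribosome, 11 were called higher (12.5%, against 3.16% of all tested genes) and 0 lower, and 86 had a log2 fold change above 0, with a median of 0.32. The 71 mitochondrial ribosomal protein genes had 2 higher (2.82%, against 3.16% of all tested genes) and 0 lower, and 17 were above 0, with a median of -0.40. Genes of high level leaned higher in general: at 100 CPM or more 9.61% were higher and 1.35% lower (median 0.17). The part of level in the values of these ribosomal families was not tested. *RpL3*, with exon bases in common with non-coding genes, was at 888, 941 and 929 CPM in hop against 665, 605 and 682 CPM in gfp (0.50, adjusted p = 0.0178, edgeR), and *mRpL27* at 19.3, 14.8 and 18 CPM in hop against 10.4, 7.55 and 8.3 CPM in gfp (0.99). Calls of *RpL3* and *mRpL27* each ended without some of the libraries hop 1, hop 3, gfp 2 and gfp 3, left out singly (adjusted p = 0.053 to 0.144 where lost). The 2 higher mitochondrial ribosomal protein genes became 0 without hop 3, gfp 2 or gfp 3 and 1 without hop 1, hop 2 or gfp 1. The 11 higher genes of the cytosolic ribosome became 0 with hop 3 or gfp 2 left out, 1 with gfp 3 left out, 5 with gfp 1 left out, 18 with Myc 2 left out, 39 with Myc 1 left out and 48 with hop 1 left out. Of 47 translation factors 4 were higher and 0 lower (median 0.22), and of 64 chromatin genes 5 were higher and 1 lower (median 0.12). Of 79 DNA replication and cell cycle genes 1 was higher and 1 lower (1.27% each, against 3.16% and 3.37% of all tested genes). *Acf1*, a subunit of chromatin remodelers whose exons share bases with *CG42233*, was at 368, 323 and 281 CPM in hop against 248, 198 and 206 CPM in gfp (0.58), *dap*, the p27 family inhibitor of Cyclin E, at 106, 125 and 127 CPM in hop against 85.2, 84.4 and 94.5 CPM in gfp (0.44), and *thr*, a subunit of separase, at 31.2, 34.4 and 30.3 CPM in hop against 52.7, 64.9 and 73 CPM in gfp (-0.99). Calls of *Acf1*, *dap* and *thr* each ended without some of the libraries hop 1, hop 2, hop 3, gfp 1, gfp 2, gfp 3 and Myc 3, left out singly, or with a minimum of 10 counts in every hop and gfp library (adjusted p = 0.0508 to 0.175 where lost). The 4 translation factors became 0 with gfp 2 or gfp 3 left out, 1 with hop 3 or gfp 1 left out, 7 with Myc 2 left out, 8 with hop 1 left out and 11 with Myc 1 left out, and the 5 higher chromatin genes 0 with gfp 2 or gfp 3 left out, 1 with hop 3 left out, 2 with gfp 1 left out, 3 with hop 1 left out and 9 with Myc 1 left out.

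No gene was called among 28 tested septate junction genes, 31 of the vacuolar ATPase, 32 Rab genes or 7 innexins, whose median log2 fold changes lay between 0.01 and 0.17. *scrib*, a septate junction gene, averaged 499 ± 19 CPM in hop and 465 ± 24.9 CPM in gfp, and *Inx2* averaged 991 ± 70.1 CPM in hop and 918 ± 24.2 CPM in gfp (SD, n = 3 each, adjusted p = 0.569 and 0.548, edgeR). These p-values do not show that the levels were equal.

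Some called genes were neighbors on the chromosome. In the full fit there were 25 runs of at least 3 neighboring tested genes called in the same direction, 18 lower and 7 higher, and they held 84 genes. These are 62 of the lower genes (14.5%) and 22 of the higher genes (5.47%). The longest run, of 5 genes on 2R, comprised *esn*, *Cyp9b1*, *Cyp9b2*, *CR44443* and *Spn43Aa*, with log2 fold changes of -0.58, -1.42, -1.06, -1.80 and -1.27. A second cluster of P450 genes on 2R, *Cyp4p1*, *Cyp4p2* and *Cyp4p3*, was lower together with *hig*, the gene that contains them. On 3L, *ara* and *caup* of the Iroquois complex were lower together with the adjacent *CR32111* (-0.92, -0.98 and -0.67). A higher run on X comprised *dyw* (listed as *CG2650*), *Spg7* (listed as *CG2658*) and *Lint-O* (listed as *CG2662*), with log2 fold changes of 1.6, 1.30 and 1.14. Of the 84 genes, 16 share exon bases with another gene. Among them, *esn* and *Cyp9b1* share bases with each other, *Spn43Aa* with *CG12828* and *dyw* with *per*. Calls of *esn*, *Cyp9b2*, *CR44443*, *Spn43Aa*, *Cyp4p1*, *Cyp4p2*, *hig*, *ara*, *CR32111*, *dyw* and *Lint-O* each ended without some of the libraries hop 1, hop 2, hop 3, gfp 1, gfp 2 and gfp 3, left out singly (adjusted p = 0.0502 to 0.142 where lost).

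**Figure D4:**
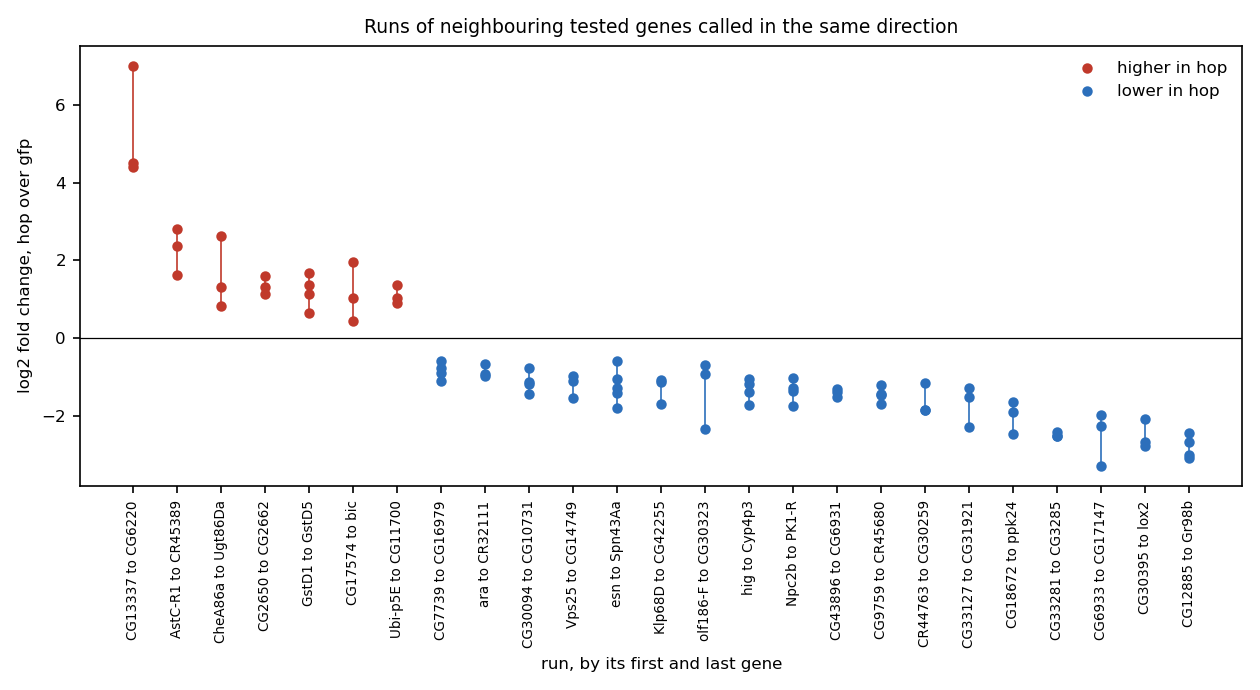
Log2 fold change of hop over gfp for the 84 genes in the 25 runs of at least 3 neighboring genes called in the same direction, 1 column per run, named by its first and last gene. The 7 higher runs (red) lie above 0 and the 18 lower runs (blue) below 0.

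Markers of other cells that a wing disc can hold were summed per library. Hemocyte markers, with 4 of 11 tested members lower and 1 higher, summed to 630 to 741 CPM in hop and 1005 to 1146 CPM in gfp. The sums take all 15 listed markers, tested or not. The matrix gene *Ppn* alone, at 400.3 to 509 CPM in hop and 695 to 809 CPM in gfp, made up most of the sum in each library. *Sr-CI*, a scavenger receptor of hemocytes, was at 56.7, 62.3 and 50.8 CPM in hop against 106, 97.1 and 97.6 CPM in gfp (log2 fold change -0.82, adjusted p = 0.00268, edgeR), and *Col4a1* (listed as *Cg25C*), a collagen IV chain, had a log2 fold change of -1.27, while *srp*, a GATA factor of blood cells, averaged 36 ± 9.28 CPM in hop and 39.3 ± 1.92 CPM in gfp (SD, n = 3 each, adjusted p = 0.722). The matrix genes *Ppn*, *Pxn* and *Col4a1* are themselves hemocyte markers, and the part of hemocytes in those values was not tested. The call of *Col4a1* ended without hop 3, gfp 2 or gfp 3 (adjusted p = 0.0619 to 0.0655 where lost). The 4 lower markers became 2 without gfp 2.

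Adult muscle precursor markers, with 1 of 15 tested members higher and 3 lower, summed to 925 to 1311 CPM in hop and 614 to 731 CPM in gfp, and *sls*, a titin-like muscle protein gene with exon bases shared with an antisense RNA, was at 941, 604 and 720.0 CPM in hop against 391, 269 and 299.7 CPM in gfp (adjusted p = 0.127, edgeR). *sls*, which was not called, made up most of the summed level in each hop library. The median log2 fold change of the 15 markers was -0.48, with 6 above 0, so the higher sum in hop does not describe most of these markers. Library 1 was the highest of its group in *sls* in both hop and gfp. *Mef2*, the defining muscle factor, was higher (0.65), and *zfh1*, a further factor of muscle precursors, was lower (-0.90). Calls of *Mef2* and *zfh1* ended without hop 1, hop 3, gfp 1, gfp 2 or gfp 3 (adjusted p = 0.0562 to 0.139 where lost). The 3 lower markers became 1 without hop 1, hop 3, gfp 1, gfp 2 or gfp 3, with *stumps* called each time. Neuron and glia markers summed to 997 to 1558 CPM in hop and 899 to 1158 CPM in gfp, ranges that overlap. The pan-neuronal *elav* averaged 89.96 ± 9.68 CPM in hop and 71.9 ± 6.73 CPM in gfp (SD, n = 3 each, adjusted p = 0.199), and the part of neurons in the values of the synaptic genes was not tested.

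Tracheal markers, with 4 of 11 tested members higher, summed to 1760 to 1884 CPM in hop and 1262 to 1376 CPM in gfp. *serp*, *verm* and *Gasp* stand in this list and in that of the chitinous matrix, so the lists are not separate, and *vvl*, a tracheal transcription factor, averaged 480.3 ± 103 CPM in hop and 413 ± 60.8 CPM in gfp (SD, n = 3 each, adjusted p = 0.391, edgeR). The 4 higher markers became 2 without gfp 2 or gfp 3. The part of tracheal cells was not tested. Fat body markers summed to 120 to 128 CPM in hop and 89.2 to 108 CPM in gfp, ranges that do not overlap. Of 9 tested fat body markers 0 were called, with a median log2 fold change of 0.57 and 5 above 0. Posterior compartment markers, which sorting should deplete, summed to 94.6 to 112 CPM in hop and 122 to 133 CPM in gfp with 0 of 3 called. Sex and dosage compensation genes summed to 3073 to 3309 CPM in hop and 2488 to 2593 CPM in gfp, with 2 of 16 called higher and 0 lower, and the count of 2 became 0 without hop 3, gfp 1, gfp 2 or gfp 3 and 1 without hop 1 or hop 2. No list had a marker at 0 in all 6 libraries.

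**Figure D5:**
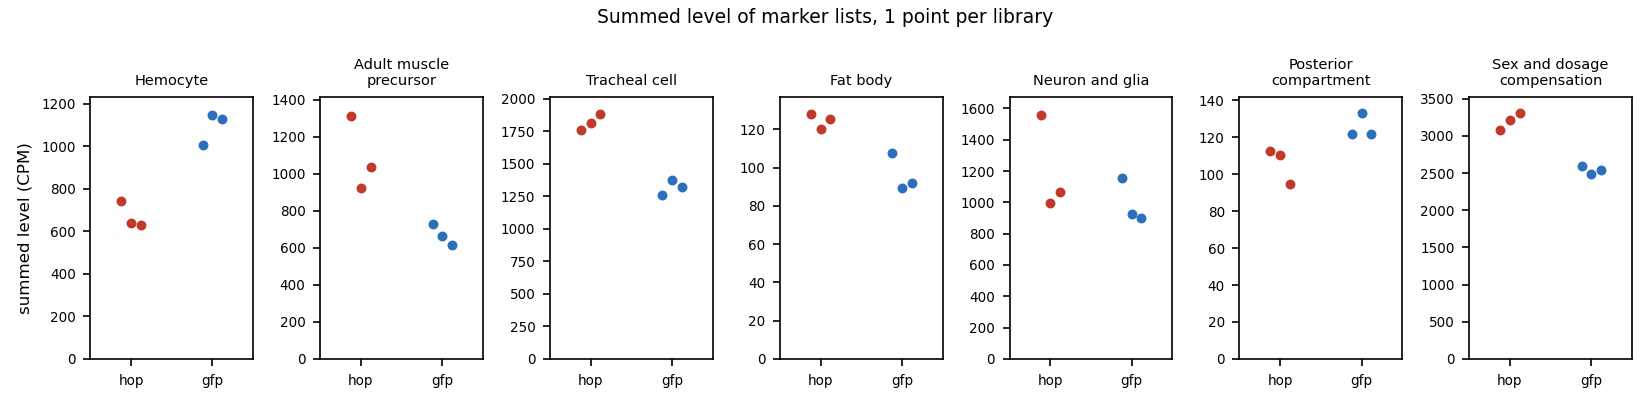
Summed CPM of 7 marker lists in each hop library (left) and each gfp library (right), axes from 0. Hemocyte sums are lower in every hop library (630 to 741 CPM) than in every gfp library (1005 to 1146 CPM), tracheal sums are higher in hop, and neuron and glia sums overlap. Most of each hemocyte sum is the matrix gene *Ppn*.

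Non-coding genes listed with CR symbols were lower in 41 of 1006 (4.08%, against 3.37% of all tested genes) and higher in 13 (1.29%, against 3.16%), with a median log2 fold change of -0.24. Over all tested genes the median was -0.28 at 1 to 5 CPM and -0.13 at 5 to 20 CPM. CR genes were not compared with other genes of the same level. *CR43622* was at 0.558, 0 and 0.526 CPM in hop against 4.21, 7.04 and 7.83 CPM in gfp (-4.07, adjusted p = 0.00287, edgeR), *CR43974* at 11.5, 10.2 and 9.46 CPM in hop against 24.3, 30.7 and 24.1 CPM in gfp (-1.34), and *CR44946* at 17.5, 10.9 and 9.46 CPM in hop against 29.4, 45.8 and 38.3 CPM in gfp (-1.58). These 3 were called whichever library was left out. The 41 lower genes became 4 with gfp 2 left out, 6 with gfp 3 left out, 7 with hop 3 left out, 20 with gfp 1 left out, 21 with hop 2 left out and 92 with Myc 1 left out, and the 13 higher genes 0 with gfp 2 left out, 1 with hop 3 or gfp 3 left out, 5 with hop 1 left out, 7 with gfp 1 left out and 47 with Myc 1 left out. In the mitochondrial genome, *mt:ATPase6* was the only one of 14 tested genes called, at 232, 371 and 268 CPM in hop against 1297, 905 and 772 CPM in gfp (-1.77, adjusted p = 0.0111), and it shares bases with *mt:ATPase8* and *mt:CoIII*. The call of *mt:ATPase6* ended without hop 3 (adjusted p = 0.0711 where lost).

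*CG16826* was the only gene with at least 10 counts in every library of gfp and 0 counts in all hop libraries. It had 10, 14 and 12 counts in gfp 1, gfp 2 and gfp 3, and against a floor of 3 counts over the hop group it was at least 11.3-fold lower in hop (adjusted p = 0.0207, edgeR). The call of *CG16826* ended without hop 3, gfp 2 or gfp 3 (adjusted p = 0.070 to 0.086 where lost). Of genes called whichever library was left out that the naming rule did not take, and chosen here after their values were seen, *ems*, a homeobox gene, was at 35.5, 36 and 44.9 CPM in hop against 12.3, 16.1 and 10.9 CPM in gfp (log2 fold change 1.57), *Ance*, an angiotensin-converting enzyme homolog, at 35, 55.6 and 49.4 CPM in hop against 148, 201 and 218 CPM in gfp (-2.01), and *Nos*, nitric oxide synthase, at 22.3, 33.9 and 19.6 CPM in hop against 56.3, 60.4 and 55.6 CPM in gfp (-1.18).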

How the data were processed

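RNA of GFP-positive cells was sequenced in 3 hop, 3 gfp and 3 Myc libraries. The labels describe polyA RNA and a *w/+* background, whereas the study's text gives total RNA and *w/w*, which is unresolved here. Per the labels and methods, the authors made the deposited counts with bcl2fastq, STAR (dm6), removal of PCR duplicates with Picard and HTSeq counts on exons. The sources used here give no versions and no strand setting. The 9 columns of a normalized table of the same libraries were not used. Of 16492 gene symbols, 11947 matched the Ensembl annotation of BDGP6, the assembly of dm6, as they stand and 4287 through synonyms in the RefSeq gene table or the table of older symbols. Positions, biotypes, exon lengths and shared exon bases come from the Ensembl annotation.

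Counts were filtered with filterByExpr (12741 genes), normalized with TMM and fitted in edgeR 4.0.16 with its quasi-likelihood test (R 4.3.3, robust estimate, all 9 libraries, contrast hop over gfp), with Benjamini-Hochberg adjustment over all tested genes and a threshold of 0.05. The script was tested on simulated data. All p-values printed, also those beside single genes, are adjusted p-values of this test unless another tool is named. Each standard error printed is the size of the log2 fold change divided by the square root of the F value of this test. Genes named are those outside the study's text with the 12 largest changes (at least 5 CPM in the higher group) or the 12 smallest p in each direction, the 8 most abundant called genes in each direction, up to 4 called members of each of 88 lists (smallest p, or up to 2 uncalled members of highest level), up to 4 most abundant markers of other cells, the genes that check the labels, genes without counts in a group and members of runs of at least 3 neighbors. The genes, lists and tests were chosen with earlier results of these data known, so counts of list members are descriptions.

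Alternatives were RLE normalization, other filters on low counts, DESeq2 1.42.0, limma-voom (limma 3.58.1), the 6 libraries alone, a replicate block, a fold of 1.5 and each library left out in turn. A fit without the robust estimate and a fit without gfp 1 and Myc 1 together were chosen after seeing the data.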

Additional observations from a re-analysis of the deposited data

How the results depend on the processing

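Against 402 higher and 429 lower genes, DESeq2 called 704 and 621, a fit of only the 6 hop and gfp libraries 904 and 772, and a fit without gfp 1 and Myc 1 together, chosen after seeing the data, 1054 and 822. Leaving out 1 library gave 73 to 1093 higher and 67 to 855 lower genes, with the lowest counts without gfp 2 and the highest without Myc 1. RLE normalization (472 and 412), no filter on low counts (501 and 422), a minimum of 10 counts in every hop and gfp library (318 and 338), limma-voom (495 and 403), no robust estimate of the spread (456 and 454) and a fold of at least 1.5 (315 and 415) stayed within 1.5 times of the main counts. No called gene that was named changed its direction under an alternative in which it was tested, and 77 of 304 were called under every one in which they passed the filter on low counts. The cause of the other losses was not tested.

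With the replicate number as a block (replicate block), 914 genes were higher and 778 lower, of which 402 and 427 were among the main calls. The labels do not say that a number marks a shared batch. Deviations of same-numbered hop and gfp libraries correlated at 0.27, 0.07 and 0.11 across genes, and hop 2 correlated best with gfp 3 (0.09). Library hop 1 correlated at -0.11 with gfp 2 and -0.18 with gfp 3, and gfp 1 at -0.14 with hop 2 and -0.15 with hop 3. Deviations were taken from the group mean and cancel within each group. The 0.27 of hop 1 with gfp 1 therefore forces negative values with other libraries, and these add no evidence. The numbers were not taken as pairs, since the labels do not give them as such. Whether the libraries numbered 1 share a batch was not tested.

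At 5265349 to 6104490 counts per library, changes of genes near 1 CPM rest on few counts. A search of promoters for the spacings of the STAT motif was planned and left undone, since no sequence was used. Groups of 3 are too small for a test of single outlying libraries.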
